A study of Mus musculus with 6 samples.

Results

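The cytosolic ribosomal protein genes were taken as the rows of the expression table whose symbol matched the mouse naming scheme Rpl or Rps plus a number, with a single letter a, l or x where present, or Rplp0, Rplp1, Rplp2 or Rpsa. This gave 83 of 55536 genes, of which 51 carry names of the large (60S) subunit and 32 names of the small (40S) subunit. The naming rule used no measured values, but the set was chosen with earlier results of these data known. The libraries came from whole livers of C57BL/6 mice aged 8 to 10 weeks, all carrying floxed Vmp1. The 3 libraries labelled H-VMP1 KO came from mice given AAV8-TBG-cre for 2 weeks, and the 3 WT libraries from mice given AAV8-TBG-null for 2 weeks. AAV8 is a virus that reaches liver cells well, and TBG is a promoter active in hepatocytes, so other liver cells should keep an intact Vmp1. The WT mice therefore also carry the floxed gene and also received virus. The libraries measure transcript abundance as TPM, a unit that corrects for transcript length and sums to the same total in every library.

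Vmp1 was at 157, 136 and 137 TPM in the libraries labelled H-VMP1 KO and at 70.7, 96.5 and 88.6 TPM in the WT libraries. Its log2 fold change was 0.75 as deposited (adjusted p = 3.8e-04, limma) and -0.18 after median-of-ratios scaling (adjusted p = 0.198), so neither scaling gave a call of lower. The gene-level value does not show which exons were read, and the libraries are called labelled-KO below. Of 12 hepatocyte marker genes, none was at 0 in all libraries. As deposited 10 were called lower, and after median-of-ratios scaling all 12, against 10.7% and 36.6% of all tested genes. The summed TPM of the 12 ranged from 25122 to 28439 in the labelled-KO libraries and from 54573 to 74885 in WT. All 18 macrophage markers rose, with a summed TPM of 1921 to 2455 in the labelled-KO libraries and 173 to 289 in WT. As deposited 74.5% of all tested genes were called higher, and after median-of-ratios scaling 35.1%. Against this, all 10 stellate markers, all 10 proliferation markers and the 4 tested markers each of neutrophils, cholangiocytes and T and NK cells were higher under both scalings. All 10 endothelial markers were higher as deposited, of which 7 kept the call after median-of-ratios scaling. Of 4 tested B cell markers 3 were higher under both. Cd2, Lck, Cd79a, Csf3r, Epcam, Mki67 and Ccnb1 were among markers under 1 TPM in every WT library. Such genes could enter the test only by being higher in labelled-KO. With quantile normalization 1 of 4 T and NK cell, 0 of 4 B cell, 3 of 4 cholangiocyte and 8 of 10 endothelial markers were higher. All 4 neutrophil, 10 stellate and 10 proliferation markers were higher there, against 35.3% of all tested genes. T and NK cell markers summed to 11.0 to 19.6 TPM in the labelled-KO libraries and 1.95 to 2.15 TPM in WT. Neutrophil markers summed to 29.2 to 61.2 TPM in labelled-KO and 2.32 to 3.86 TPM in WT. Of 5 tested erythroid markers, 1 was higher and 1 lower as deposited, and 0 were higher and 2 lower after median-of-ratios scaling. In bulk liver, fewer cells of a type and less RNA per cell cannot be told apart, and the part of these shifts in the results below was not tested.

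Ribosomes translate every cytosolic and secreted protein of the cell. The small subunit reads the messenger RNA, and the large subunit joins the amino acids and carries the tunnel through which the new chain leaves. Most vertebrate ribosomal protein messengers begin with a run of pyrimidines, the terminal oligopyrimidine (TOP) element, through which mTORC1 and the RNA-binding protein LARP1 set their translation. Hepatocytes, which secrete most plasma proteins, hold many ribosomes on the endoplasmic reticulum.

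Ribosomal protein transcripts took up a far larger share of the labelled-KO libraries than of WT. Summed over the 83 genes they held 8.82%, 7.91% and 9.52% of all TPM in labelled-KO replicates 1, 2 and 3, against 2.38%, 3.19% and 2.64% in WT replicates 1, 2 and 3. The means were 8.75 ± 0.806% in labelled-KO and 2.74 ± 0.417% in WT (SD, n = 3 each), a ratio of 3.20. The groups were far apart, and the spread within each was small beside the gap. Among the labelled-KO libraries replicate 2 was the lowest, and among the WT libraries replicate 2 was the highest, which places these libraries nearest to each other.

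**Figure D1:**
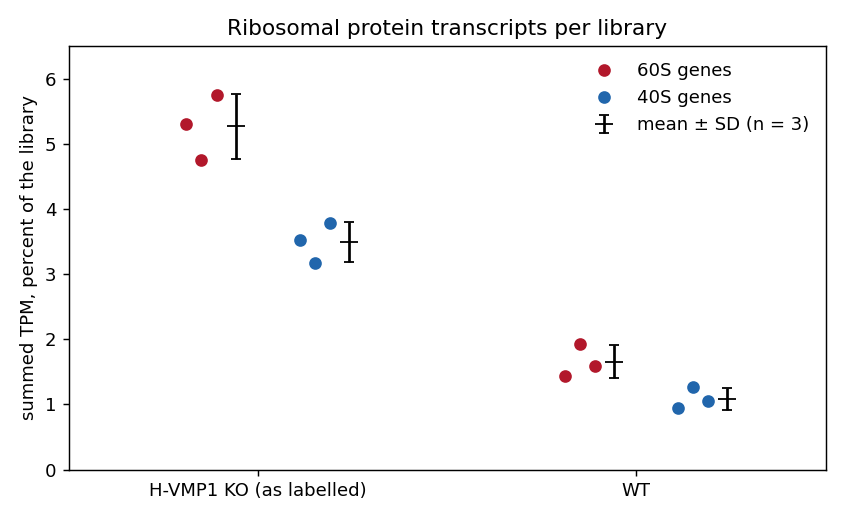
Summed TPM of the 60S and 40S ribosomal protein genes as a percent of each library's total, one point per library, with mean ± SD (n = 3). The labelled-KO libraries lie between 4.75 and 5.74% for 60S genes and between 3.16 and 3.78% for 40S genes, and every WT library lies at or under 1.93%.

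Of the 83 genes, 79 reached 1 TPM in at least 3 libraries and were tested, and all 79 were called higher at a Benjamini-Hochberg adjusted p under 0.05 (limma on log2(TPM + 1), fitted over 12796 genes). Over all tested genes 74.5% were called higher and 10.7% lower, so the direction alone is common in this comparison. The size is less common. The median log2 fold change was 1.63 for the ribosomal protein genes and 0.77 for all tested genes, and 14.9% of all tested genes had a larger value than the median ribosomal protein gene. Every labelled-KO library lay above every WT library for all 79, as it did for 75.5% of all tested genes. The test covers the spread between these libraries only, since the labels do not say that they came from separate animals.

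The size of the change depends on how libraries are scaled, since TPM are shares of a fixed total. The Mup genes, a secreted hepatocyte family, held 0.41 ± 0.117% of TPM in labelled-KO and 16.9 ± 4.85% in WT (SD, n = 3 each). Scaling by the median of ratios centres the libraries on their typical gene and moved the median of all tested genes to -0.01. There the median of the ribosomal protein genes was 0.69, and 74 of 79 were called higher and 0 lower (limma), against 35.1% higher and 36.6% lower over all tested genes. With quantile normalization 77 of 79 were higher, against 35.3% of all tested genes. Rescaling without mitochondrially encoded and the 20 most abundant genes left all 77 tested coding members higher, against 68.2% of all tested genes. The higher level of most ribosomal protein genes thus held with each of these scalings, and its size did not.

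**Figure D2:**
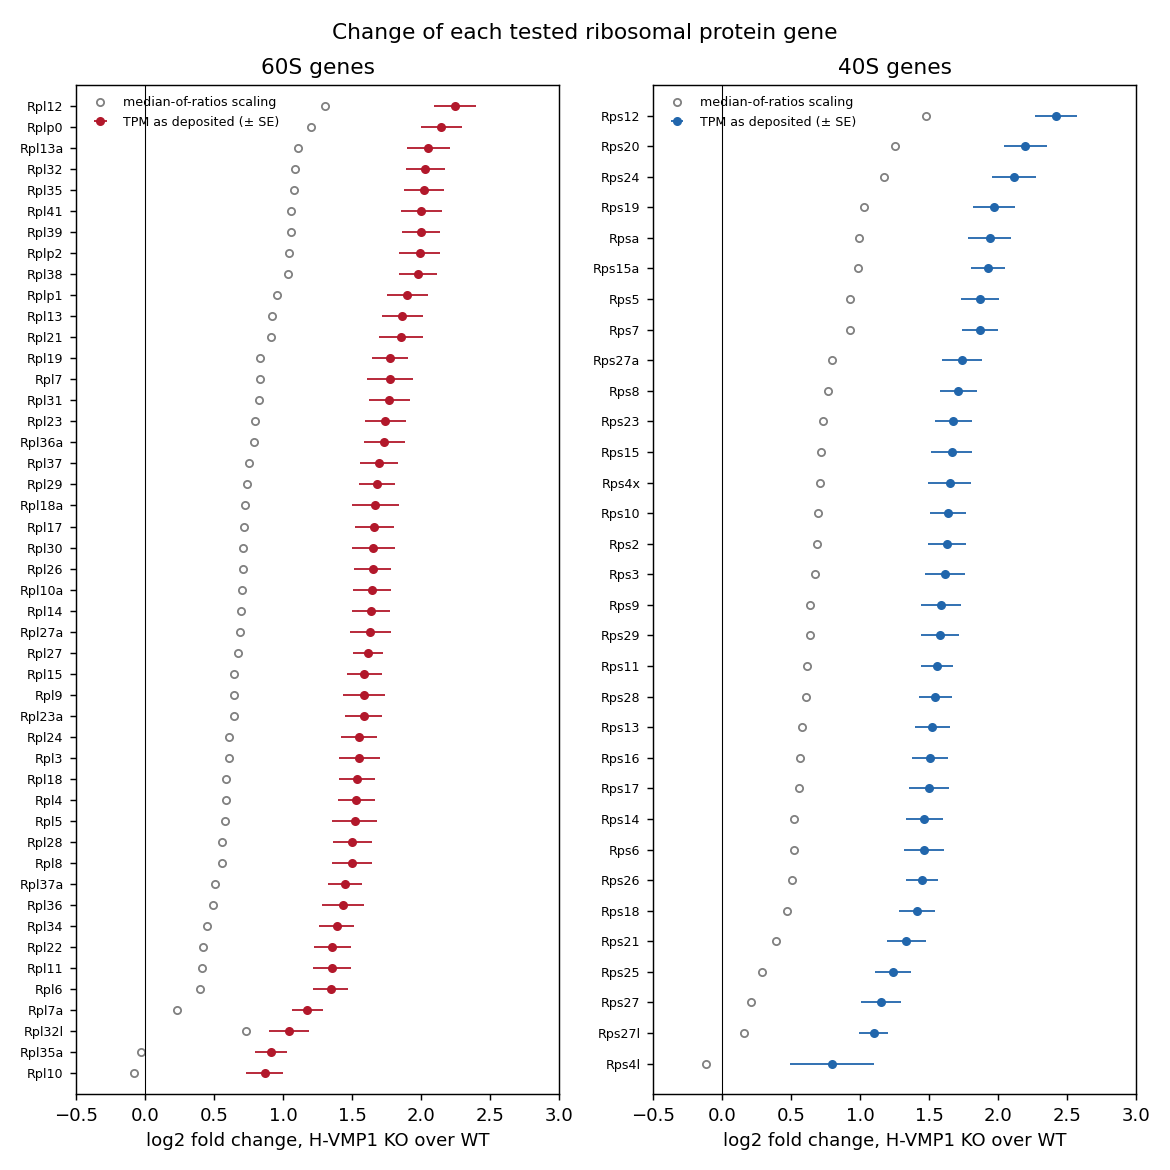
Log2 fold change (labelled-KO over WT) of each tested ribosomal protein gene, on the log2(TPM + 1) scale, with the 47 tested 60S genes at left and the 32 tested 40S genes at right. Filled points with SE are TPM as deposited and run from 0.80 for Rps4l to 2.42 for Rps12, while open points show median-of-ratios scaling, where Rpl10, Rpl35a and Rps4l lie just under 0.

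The tested protein-coding members form a compact group. The 2 tested genes outside it, Rpl32l and Rps4l, are annotated as processed pseudogenes although their names lack the usual pseudogene suffix. The 77 tested protein-coding genes had mean levels of 405 to 2816 TPM in labelled-KO and of 113 to 753 TPM in WT. Their ratios of means ran from 1.81 to 5.33, with a median of 3.10 and quartiles of 2.82 and 3.60, and 62 of the 77 lay between 2.5 and 4. Their adjusted p ran from 5.6e-07 to 1.6e-04 (limma). With median-of-ratios scaling 73 of the 77 were called higher. Rank order was largely kept, with a Spearman correlation across the 77 genes of 0.90 between mean levels in labelled-KO and WT, a description over genes of shared libraries.

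**Figure D3:**
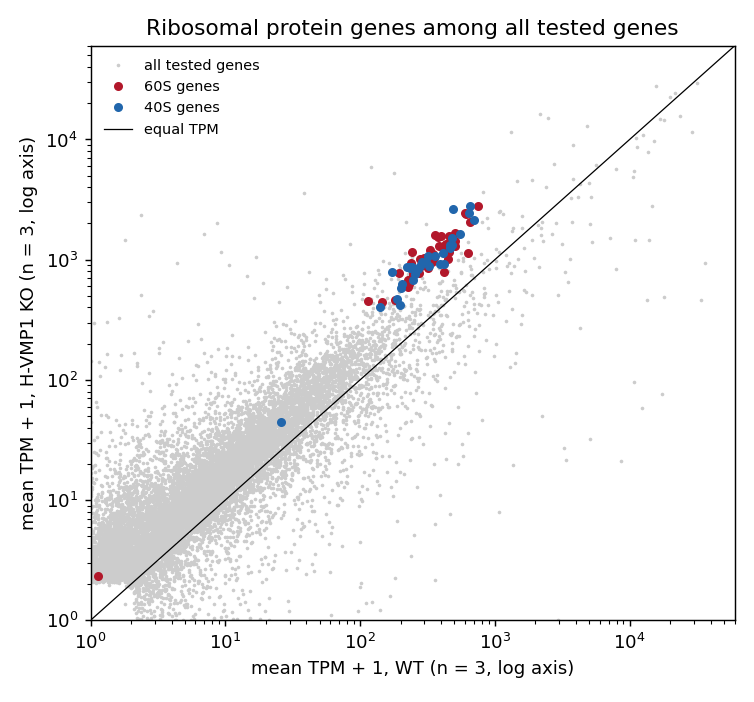
Mean TPM + 1 of each of the 12796 tested genes in WT (horizontal, log axis) and labelled-KO (vertical, log axis), with 60S and 40S genes marked. The tested coding ribosomal protein genes lie together above the line of equal TPM, at 113 to 753 TPM in WT, while Rps4l and Rpl32l lie apart at low levels.

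The genes of both subunits rose by nearly the same factor. The median ratio of labelled-KO to WT was 3.12 for the 46 coding 60S genes and 3.05 for the 31 coding 40S genes. The median log2 fold change was 1.64 for the 47 tested 60S genes and 1.60 for the 32 tested 40S genes, and after median-of-ratios scaling 0.70 and 0.66. In summed TPM the ratio of 60S to 40S genes was 1.506, 1.501 and 1.519 in labelled-KO replicates 1, 2 and 3, and 1.529, 1.533 and 1.521 in WT replicates 1, 2 and 3. It averaged 1.51 ± 0.00934 in labelled-KO and 1.53 ± 0.00622 in WT (SD, n = 3 each), a difference of -0.019. The groups did not overlap, and replicate 3 of each lay closest together. Without the paralogs and copies Rpl3l, Rpl10l, Rpl39l, Rps4l and Rps27l the difference was -0.031. The ratio does not depend on library scaling, but it does depend on which genes are counted. The sums leave out ribosomal protein genes that the naming scheme misses, of which 5 are described further on.

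The P stalk, the flexible arm of the 60S subunit that recruits the translation factor GTPases, had some of the larger increases. Rplp0, which anchors the stalk, was at 1590, 1383 and 1831 TPM in labelled-KO and at 314, 414 and 356 TPM in WT. Its log2 fold change was 2.14 ± 0.15 (SE) with adjusted p = 9.7e-07 (limma), and 1.20 after median-of-ratios scaling. The acidic stalk proteins followed, with Rplp1 at a mean of 2790 ± 216 TPM in labelled-KO and 753 ± 131 TPM in WT, the highest WT level of all 83 genes. Rplp2 was at 1574 ± 155 TPM in labelled-KO and 399 ± 69.8 TPM in WT. Rpl12 sits at the base of the stalk and had the largest log2 fold change of the 60S genes, 2.24 ± 0.15. It was at 1168, 989 and 1290 TPM in labelled-KO and at 209, 290 and 228 TPM in WT. The groups were far from overlapping.

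In the head and beak of the 40S subunit, where Rps12 and Rps20 are placed, increases were also among the larger ones. Rps12 (ENSMUSG00000061983) had the largest log2 fold change of all, 2.42 ± 0.15 with adjusted p = 5.6e-07 (limma), and 1.48 after median-of-ratios scaling. It was at 2625, 2323 and 2906 TPM in labelled-KO and at 407, 564 and 503 TPM in WT. Rps20 was at 808, 689 and 861 TPM in labelled-KO and at 139, 207 and 170 TPM in WT. The 6 head and beak genes listed had a median log2 fold change of 1.90, which was 0.96 after median-of-ratios scaling. Among them Rps19, the gene most often mutated in human Diamond-Blackfan anaemia, had 1.97 ± 0.15, and Rpsa had 1.94 ± 0.15. Rps27a, which encodes a ribosomal protein fused to ubiquitin, had 1.74 ± 0.14, close to the median of the set.

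The other groups by function stayed near the set as a whole. The 9 genes of the peptide tunnel and its exit had a median log2 fold change of 1.66 and a range of 1.36 to 2.02. Rpl39, a very small protein lining the tunnel, was at 457, 400 and 499 TPM in labelled-KO and at 98.3, 134 and 107 TPM in WT. Among the tested coding members its WT level was the lowest. The 5 genes at the messenger entry and decoding site, Rps2, Rps3, Rps9, Rps15 and Rps23, ranged only from 1.58 to 1.67. The partners that bind 5S ribosomal RNA, and that restrain MDM2 when not in ribosomes, were lower in the order. Rpl5 had 1.52 ± 0.16 and Rpl11 had 1.35 ± 0.14, and both kept a higher call after median-of-ratios scaling. Rps6, the substrate of S6 kinase, was at 1306, 1200 and 1438 TPM in labelled-KO and at 410, 560 and 467 TPM in WT, a log2 fold change of 1.46 ± 0.14. Of 15 genes known from human Diamond-Blackfan anaemia, all 15 rose as deposited, and 13 kept that call after median-of-ratios scaling, with medians of 1.58 and 0.63. Over all tested genes these calls were made for 74.5% and 35.1%.

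A few genes rose far less than the rest. Rpl10, which joins the 60S subunit late in its maturation in yeast, had a value of 0.86 ± 0.13 (log2 fold change, SE) and an adjusted p of 1.6e-04 as deposited, and -0.08 with adjusted p = 0.551 after median-of-ratios scaling (limma). It was at 1118, 1101 and 1202 TPM in labelled-KO and at 545, 723 and 622 TPM in WT. By mean level it ranked 30 among the 83 genes in labelled-KO and 6 in WT. Rpl35a had 0.91 ± 0.12 as deposited and -0.03 with adjusted p = 0.785 after median-of-ratios scaling. Its TPM were 773, 755 and 835 in labelled-KO and 380, 464 and 415 in WT. Rpl7a had 1.17 ± 0.11, Rps27 had 1.15 ± 0.15 and Rps25, which some viral internal ribosome entry sites need, had 1.23 ± 0.13. Of these, Rps27 lost its call after median-of-ratios scaling (0.21, adjusted p = 0.165), while Rpl7a and Rps25 kept it.

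To compare genes within the set, each library was rescaled by centring it on the median of its ribosomal protein genes, and the fit was repeated over all tested genes. Of the 77 coding genes, 17 then were higher and 6 lower than the set, and 54 were not called (limma), against 8.95% higher and 72.6% lower over all tested genes. The 17 were 10 genes of the 60S and 7 of the 40S subunit, and the 6 were 3 of each. All 3 P stalk genes were among the higher, with a median of 0.40. The lower ones were Rpl10 (-0.72), Rpl35a (-0.68), Rps27l (-0.49), Rps27 (-0.44), Rpl7a (-0.41) and Rps25 (-0.35). The call for Rpl32l is not read, since the added 1 TPM is large beside its level: its share of the set was higher in every labelled-KO library.

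Shares of the ribosomal protein total show some of these departures in plain terms. A share compares a gene with the sum of the set, and the centred fit with its median, so the counts from each differ. Rps12 made up 2.98%, 2.94% and 3.05% of the set's TPM in labelled-KO and 1.71%, 1.77% and 1.90% in WT. Rps24 made up 3.21 ± 0.113% in labelled-KO and 2.38 ± 0.112% in WT (SD, n = 3 each), and in labelled-KO it was the most abundant member, at 2816 ± 344 TPM. Rpl10 went the other way, with 1.27%, 1.39% and 1.26% in labelled-KO and 2.29%, 2.26% and 2.36% in WT. Rpl35a held 0.903 ± 0.045% in labelled-KO and 1.54 ± 0.078% in WT (SD, n = 3 each). Of the 77 shares, 25 were higher in every labelled-KO library, 32 were lower in every one, and 20 overlapped. Measured the same way against the ribosomal protein total, 16.8% of all tested genes were higher and 66.2% lower in every labelled-KO library.

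**Figure D4:**
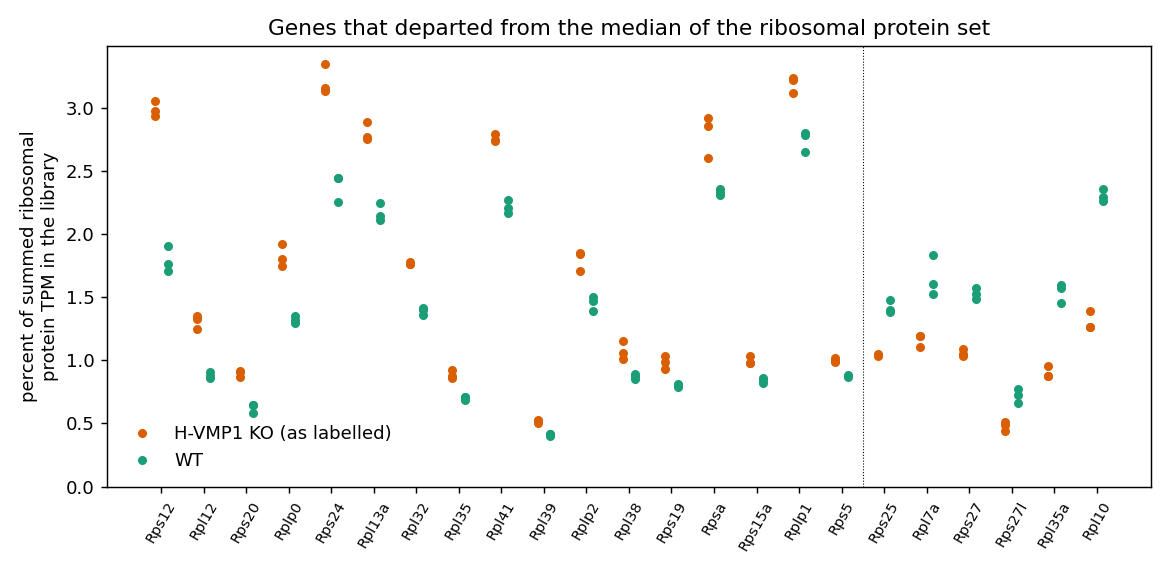
Share of the summed ribosomal protein TPM held by each of the 23 coding genes that differed from the median of the set, one point per library, ordered by the size of the difference. Left of the dotted line are the 17 genes with a larger share in labelled-KO, led by Rps12, and right of it the 6 with a smaller share, ending with Rpl10.

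The 60 bases around the start of several members, from 40 before the annotated start to 20 after it, are given because the TOP element lies there. Sequences are from RefSeq on GRCm38.p6, on the coding strand, 5′ to 3′, and capitals mark the longest run of C and T within 20 bases of the start. RefSeq gives 2 starts for Rps24 and 3 for Rpl35a, and the start with the longest run is shown. The first 5 are among the 17 genes higher than the set, the next 2 were not called against it, and the last 4 are among the 6 lower than it. They were picked without a rule and do not stand for the set. All but Rpl10 hold a run of at least 9 bases, while 30 of 58 members (51.7%) had one of at least 8.
Rps12: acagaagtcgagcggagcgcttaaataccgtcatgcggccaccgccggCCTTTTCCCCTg
Rps24: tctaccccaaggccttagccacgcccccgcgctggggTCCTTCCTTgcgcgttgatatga
Rpl35: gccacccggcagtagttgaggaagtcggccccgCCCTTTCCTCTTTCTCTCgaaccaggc
Rplp2: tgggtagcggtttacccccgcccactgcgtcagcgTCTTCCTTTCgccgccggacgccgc
Rpl38: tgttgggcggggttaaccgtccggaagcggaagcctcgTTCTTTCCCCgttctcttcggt
Rpl15: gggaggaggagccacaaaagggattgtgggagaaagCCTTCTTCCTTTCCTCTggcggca
Rps6: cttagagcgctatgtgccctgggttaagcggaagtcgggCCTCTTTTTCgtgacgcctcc
Rps27: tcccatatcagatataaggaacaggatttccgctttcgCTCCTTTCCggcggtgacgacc
Rpl7a: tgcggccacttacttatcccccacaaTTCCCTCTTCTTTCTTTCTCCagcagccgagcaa
Rpl35a: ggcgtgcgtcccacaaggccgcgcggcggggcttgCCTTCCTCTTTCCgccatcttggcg
Rpl10: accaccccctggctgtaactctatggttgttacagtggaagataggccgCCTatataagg
On the plus strand lie Rps24 at chr14:24490638-24490697, Rplp2 at chr7:141447611-141447670, Rpl38 at chr11:114668540-114668599, Rpl7a at chr2:26910767-26910826, Rpl35a at chr16:33056442-33056501 and Rpl10 at chrX:74270776-74270835. On the minus strand lie Rps12 at chr10:23787190-23787249, Rpl35 at chr2:39005112-39005171, Rpl15 at chr14:18270967-18271026, Rps6 at chr4:86857348-86857407 and Rps27 at chr3:90213629-90213688. Rpl7a, with the longest run of those shown at 21 bases, rose less than most of the set, and so did Rpl35a, with 13. Rps12, with 11, rose most.

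A promoter entry was matched by symbol for 58 of the 79 tested members. A run of at least 8 pyrimidines on the coding strand within 20 bases of a start was found in 30 of the 58 (51.7%), against 19.2% of 9524 tested genes with an entry and 18.4% of all genes in the table, counting a gene when any of its starts had one. The median log2 fold change of members with and without such a run was 1.59 and 1.63. The motif CCGGAAG, a core bound by ETS-family factors, was found on either strand from 250 bases before to 50 after the start in 24 of 58 (41.4%), against 20.3% of tested genes and 9.93% of all genes. Members with and without it had medians of 1.63 and 1.60. Its reverse complement CTTCCGG holds a stretch of pyrimidines, so the 2 searches can share bases. On either strand AAGATGGC, the core of the YY1 site, was found in 5 of 58 (8.62%, against 5.34% of tested genes), TATAAA in 7 (12.1%, against 9.48%) and GGGCGG, a GC box, in 35 (60.3%, against 66.6%). Runs and motifs describe the annotated window only, and annotated starts can lie some bases from the true ones. In Rpl10 the longest run in this window was 3 bases.

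Both Rps27l and Rps4l were at lower levels than their partners. Rps27l, a paralog of Rps27 known as a p53 target, was at 432, 405 and 419 TPM in labelled-KO and at 184, 210 and 192 TPM in WT, a log2 fold change of 1.10 ± 0.10. With median-of-ratios scaling it was 0.16 with adjusted p = 0.113 and not called (limma). Rps27l made up 31.2 ± 1.41% of the pair's TPM in labelled-KO and 32.0 ± 2.32% in WT (SD, n = 3 each), so both members of the pair sat low in the set together. Rps4l, the processed copy related to Rps4x, was at 57.5, 42.4 and 31.8 TPM in labelled-KO and at 30.7, 28.1 and 16.2 TPM in WT. Its value of 0.80 ± 0.30 only just passed (adjusted p = 0.045) and turned to -0.12 after median-of-ratios scaling, whereas Rps4x had 1.65 ± 0.16. Reads of such near-identical copies can be shared out in error, so single values are uncertain.

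Germline and muscle paralogs stayed near nothing. Rpl10l, a testis paralog of Rpl10, was listed at 0 in all 6 libraries. Rpl3l, a muscle paralog of Rpl3, was at 0.07, 0.19 and 0.11 TPM in labelled-KO and at 0.05, 0.13 and 0.08 TPM in WT, which overlap. Rpl39l was at 0.31, 0.19 and 0.23 TPM in labelled-KO and listed at 0 in the 3 WT libraries. Rpl6l, a processed pseudogene by annotation, was at 0 to 0.77 TPM. Rpl32l was at 1.11, 1.03 and 1.89 TPM in labelled-KO and under 1 TPM in every WT library, so it could enter the test only by being higher.

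Of the ribosomal protein genes that the naming scheme misses, 5 were examined, and their median increase was smaller than that of the set. All 5 were called higher as deposited, with a median log2 fold change of 1.01, and 2 after median-of-ratios scaling, with a median of 0.088. Over all tested genes these calls were made for 74.5% and 35.1%. Rps3a1, which encodes a core 40S protein, had 1.45 ± 0.13, and Fau, whose product is cut into Rps30 and a ubiquitin-like protein, had 1.51 ± 0.14, both kept after median-of-ratios scaling.

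The paralog-like genes among the 5 lost ground to their partners. Rpl36al made up 41.6%, 47.7% and 41.8% of the summed TPM of Rpl36al and Rpl36a in labelled-KO, and 62.9%, 58.2% and 62.0% in WT. Rpl22l1 made up 11.5 ± 0.243% of its pair with Rpl22 in labelled-KO and 16.9 ± 1.73% in WT (SD, n = 3 each). Rpl7l1 made up 6.16 ± 0.918% of its pair with Rpl7 in labelled-KO and 9.84 ± 0.428% in WT. These shares do not depend on library scaling, and in each pair the groups did not overlap.

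Rows named as pseudogenes of these genes numbered 298 and were low. They summed to 995.8 ± 101 TPM in labelled-KO and 376 ± 36.8 TPM in WT. Per 100 TPM of the genes themselves this was 1.14 ± 0.0121 TPM in labelled-KO and 1.38 ± 0.0747 TPM in WT (SD, n = 3 each). Adding them to their genes changed no call among the members.

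Genes that make ribosomes rose too, with a smaller median. Of 56 ribosome biogenesis genes, 55 were called higher as deposited (median 1.25), against 74.5% of all tested genes. After median-of-ratios scaling 37 were higher and 3 lower (median 0.37), against 35.1% and 36.6% of all tested genes. The largest were Gar1 at 2.57 ± 0.10 and Nhp2 at 2.36 ± 0.11, both parts of the particles that guide pseudouridylation of ribosomal RNA, and Eif6 at 2.52 ± 0.12, which keeps free 60S subunits from joining early. Eif6 was at 235, 204 and 239 TPM in labelled-KO and at 34.6, 45.0 and 36.4 TPM in WT. Of 19 other TOP genes, 18 were higher as deposited (median 1.33), against 74.5% of all tested genes. In this list 11 were higher and 1 lower after median-of-ratios scaling (median 0.40), against 35.1% and 36.6%. Pabpc1, the poly(A)-binding protein, had 2.15 ± 0.20, Eef1b2, an elongation factor subunit, 1.90 ± 0.13 and Npm1 1.86 ± 0.13.

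Of 15 tested regulators of ribosome synthesis, 12 were called higher as deposited with a median of 0.61, against 74.5% of all tested genes. After median-of-ratios scaling 3 were higher and 7 lower, against 35.1% and 36.6% of all tested genes. Myc, a transcription factor known to raise transcription of ribosomal genes, had the largest change in this list. It was at 50.1, 52.8 and 53.2 TPM in labelled-KO and at 2.21, 3.77 and 3.65 TPM in WT, or 3.68 ± 0.15 as a log2 fold change (limma, adjusted p = 6.3e-08), and 2.84 after median-of-ratios scaling. Its partner Max had 1.29 ± 0.11, and 0.40 after median-of-ratios scaling. Eif4ebp1, a translational repressor controlled by mTORC1, had 2.57 ± 0.19.

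Genes of mitochondrial ribosomes and of the translocon had smaller median changes. The 78 mitochondrial ribosomal protein genes, a list added after the first results were seen, had a median log2 fold change of 0.75, beside 0.77 for all tested genes. As deposited 71 were called higher and 1 lower, against 74.5% and 10.7% of all tested genes. After median-of-ratios scaling 17 were higher and 35 lower, against 35.1% and 36.6%. The 17 genes of the signal recognition particle and translocon, which bring ribosomes to the endoplasmic reticulum, had a median of 0.85. Of these 16 were higher as deposited, against 74.5% of all tested genes. With median-of-ratios scaling 3 were higher and 5 lower, against 35.1% and 36.6%. Srp19 had the largest value in that list, 1.72 ± 0.10, followed by Srprb with 1.56 ± 0.11.

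**Figure D5:**
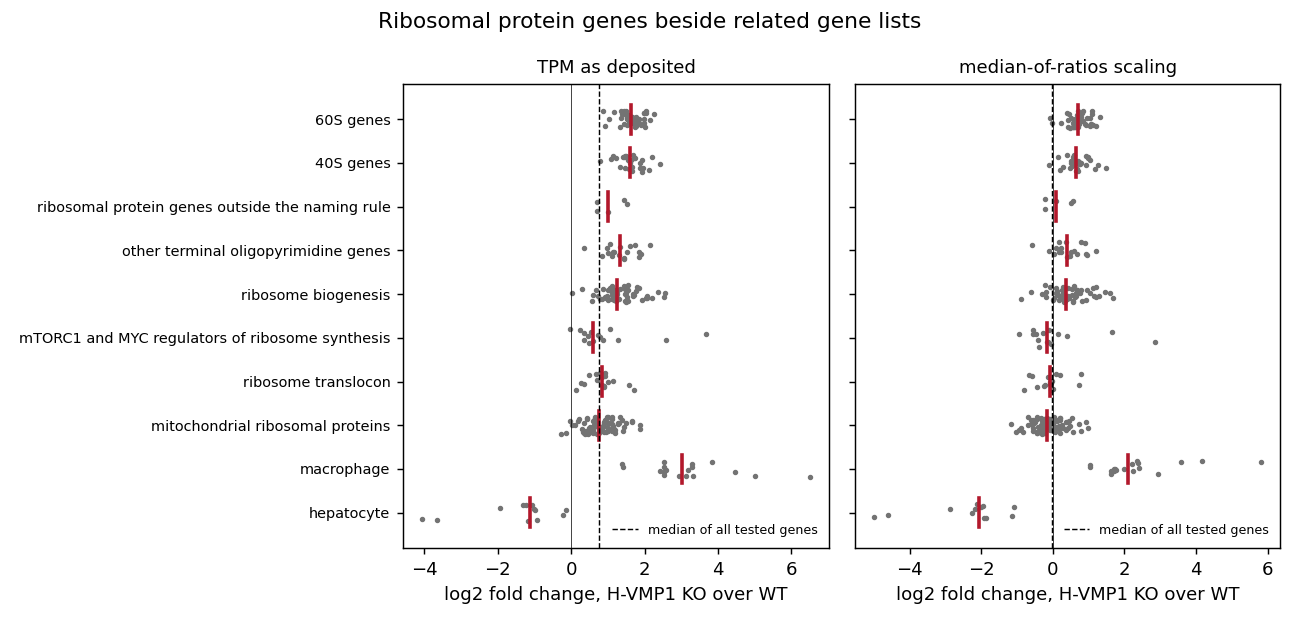
Log2 fold change (labelled-KO over WT) of the tested genes of each list, one point per gene, with TPM as deposited at left and median-of-ratios scaling at right; red bars are list medians and the dashed line is the median of all tested genes. The 60S and 40S genes cluster at medians of 1.64 and 1.60 as deposited, above the dashed line at 0.77, while mitochondrial ribosomal protein genes spread around that line.

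Transcript length and level, which could set a TPM apart, were compared over other coding genes. The members' transcripts had a median length of 696 bases. Other tested coding genes with transcripts under 700 bases had a median log2 fold change of 0.81 (784 genes), close to that of all genes. Other coding genes with a mean of 100 to 1000 TPM over the 6 libraries had a median of 0.53 (831 genes), and -0.40 after median-of-ratios scaling. Among the 77 coding members, the log2 fold change had a Spearman correlation of 0.07 with length, 0.15 with GC content and 0.01 with WT level, each a description over genes that share their libraries.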

How the data were processed

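Bulk liver RNA was measured in 6 libraries. The authors deposited TPM per gene and library. Tools listed without role or order, per the submitters' processing notes, are STAR 2.6.1c, edgeR and RSEM, and the build listed is mm10. TPM keep no read depth, so depth is unknown and no counting interval is given. A gene was tested when 3 or more libraries reached 1 TPM (12796 of 55536 genes), on log2(TPM + 1) with limma 3.58.1 in R 4.3.3 (trend and robust variances, both groups, no covariates, two-sided, Benjamini-Hochberg threshold 0.05); fold changes on this scale understate low genes. The code was tested on simulated data. Alternatives were median-of-ratios, quantile and other scalings, filters, pseudocounts, leaving out each library and a replicate block. Biotypes came from GENCODE M21 and promoters from RefSeq. Members and lists were chosen with earlier results of these data known, and the paralog pairs, motifs, length and level bins and mitochondrial list after values were seen. Genes were named by rule: Vmp1, the 4 highest and 4 lowest members of each subunit by fold change, the 3 most and 3 least abundant members, members not called, a list of members and paralogs with known roles, 5 genes outside the naming scheme, and up to 3 called genes with the largest change in each list. Rpsa, Rpl15, Rpl35, the Mup genes and the 5 decoding-site genes were named after their values were seen where they fall outside it. One item that the rule covers is not reported here.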

Additional observations from a re-analysis of the deposited data

How the results depend on the processing

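Scaling moved the results most. Of all tested genes 9537 were higher and 1369 lower as deposited, 4496 higher and 4689 lower after median-of-ratios scaling, 4520 and 4534 after quantile normalization, and 1145 and 9294 when centred on the ribosomal protein genes. By construction the last setting tests departures from the set: it called 17 of the members higher and 7 lower. The seventh, Rpl32l, was called lower on log2(TPM + 1), where the added 1 TPM is large beside its level: its log2 fold change was 1.04 there and 2.69 with a pseudocount of 0.1, and its share of the set was higher in every labelled-KO library. For the 60S genes the median log2 fold change was 0.70, 1.23 and 0.054 under these 3 settings, and that of the 40S genes 0.66, 1.17 and 0.013. The difference in the 60S to 40S ratio was -0.031 without the restricted paralogs and -0.025 with the 5 genes outside the naming scheme. Among named genes, log2 fold changes turned negative after median-of-ratios scaling for Vmp1 -0.18, Rpl10 -0.080, Rpl35a -0.032, Rps4l -0.12, Rpl22l1 -0.22 and Rpl36al -0.22. Centred on the set, they were Vmp1 -0.83, Rpl10 -0.72, Rpl35a -0.68, Rpl32l -0.55, Rpl7a -0.41, Rps4l -0.79, Rps27l -0.49, Rps27 -0.44, Rps25 -0.35, Rps28 -0.041, Rpl5 -0.070, Rpl11 -0.23, Rps6 -0.12, Rpl22 -0.23, Rpl3 -0.037, Rps3a1 -0.14, Fau -0.075, Rpl7l1 -0.57, Rpl22l1 -0.89, Rpl36al -0.87, Max -0.30, Srprb -0.022 and Srp14 -0.44. Leaving out 1 library at a time gave 77 to 79 members higher and 0 lower, 7585 to 9599 genes higher, 1135 to 1341 lower, medians of 1.54 to 1.75 (60S) and 1.501 to 1.72 (40S), and ratio differences of -0.024 to -0.015. Rps4l lost its call without labelled-KO replicate 1 or 2 or WT replicate 3, at a threshold of 0.01, and under both other filters and every other scaling. Replicate numbers do not pair the samples: same-numbered libraries correlated at 0.076, 0.040 and -0.115 in their deviations. With the replicate block 79 members were higher, 9427 genes higher and 1333 lower, and the medians stayed 1.64 and 1.60. TPM hold no depth, so what depth limits is unknown.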
